A study of Homo sapiens with 20 samples.

Results

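The 9 genes described here encode subunits of the Polycomb repressive complexes PRC1 and PRC2 and were measured by RNA-seq in T47D cells, an established luminal breast cancer line with oestrogen and progesterone receptors. EZH1, EZH2, SUZ12, EED, JARID2, BMI1, RNF2, CBX2 and CBX7 were matched by symbol to the Ensembl identifiers of the count files, where they make up 9 of 57820 genes. All 9 passed the filter on low counts, which left 18806 genes for testing. The groups were cells given siRNA against BRG1 (si-BRG1; BRG1 is the SWI/SNF remodelling ATPase encoded by SMARCA4), CBX3 (si-CBX3, the heterochromatin protein HP1 gamma) or FOXA1 (si-FOXA1, a pioneer transcription factor), and cells given a control siRNA (si-control). Each siRNA was sampled after 6 h and at 0 h of 10 nM R5020, a synthetic progestin, with 2 libraries in each of the 8 groups. Where the labels give a protocol, which they do not for the first si-CBX3 0 h library, cells had been moved to charcoal-stripped and then serum-free medium before hormone. Cells without siRNA gave 1 RNA-seq library at 6 h and 1 at 0 h, and 1 list of BRG1 ChIP-seq peaks at 30 min and 1 at 0 min. By its title the series asks how hormone represses genes through BRG1 and the linker histone H1.2.

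Polycomb proteins keep genes silent by modifying histones. PRC2 methylates histone H3 on lysine 27 through EZH2 or its paralogue EZH1, which act with the scaffold SUZ12 and the reader EED, and JARID2 helps to place the complex on chromatin. PRC1 ubiquitylates histone H2A through the RING-finger ligase RNF2 (RING1B) with a PCGF partner such as BMI1, and its CBX subunits, among them CBX2 and CBX7, bind the methylated H3 tail. EZH2 is known as the form of dividing cells and is often high in breast tumours, whereas EZH1 is found also in resting cells.

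Libraries held 50017255 to 74374857 assigned fragments, and no 2 libraries were identical. SMARCA4 stood at 4.99 and 5.90 CPM (TMM-scaled CPM, the fragments of a gene relative to library size) in si-BRG1 at 0 h, against 76.6 and 65.7 in si-control. CBX3 stood at 6.80 and 6.37 CPM in si-CBX3 and 241.9 and 266.5 in si-control, and FOXA1 at 61.4 and 62.8 CPM in si-FOXA1 and 389.1 and 408.0 in si-control. SMARCA4 was also at 184.5 and 175.1 CPM in si-CBX3 and 182.8 and 186.9 in si-FOXA1 at 0 h, above si-control. All 9 luminal markers were tested, and their summed level was 5893 to 11407 CPM per library, against 23.2 to 59.1 CPM for the 5 of 10 leukocyte, endothelial and mesenchymal markers that passed the filter. PTPRC, CD3E, COL3A1 and PDGFRB stayed under the filter, and PECAM1 was not matched by symbol in the count files. The count commands in the file headers name 1 thread for si-CBX3 and si-FOXA1 and 8 threads for si-BRG1 and si-control. Only this setting was compared, and it does not say whether cells or libraries were handled apart. Thread setting and siRNA cannot be told apart in si-CBX3 or si-FOXA1 against si-control. The comparisons with the same thread setting are si-BRG1 against si-control, si-FOXA1 against si-CBX3 and 6 h against 0 h under each siRNA. Whether replicates came from different cultures is not stated in the labels, and each p-value reflects the spread of these samples alone, which may be technical.

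RefSeq promoter windows (GRCh38.p14) were found for 8 of the 9 members, all but CBX2, as 11 windows of the 250 bases before a transcription start. They were searched on both strands for 4 spellings of the site of E2F, the factor family of S-phase genes (TTTGGCGC, TTTCCCGC, TTTGCCGC and TTTCGCGC), because EZH2 is set beside cell-cycle genes below, and for the hormone response half-site TGTTCT and the full element, AGAACA and TGTTCT with 3 bases between. The E2F spellings occurred in 2 of the 11 windows and in 2.79% of the 35116 windows of all genes. The half-site occurred in 0 of 11 and in 12.4% of all windows, and the full element in 0 of 11 and in 0.00285%. The windows printed are those of EZH1 (chr17:42745041-42745290, minus strand) and SUZ12 (chr17:31936757-31937006, plus strand), which hold an E2F spelling, of EZH2 (chr7:148884292-148884541, minus strand; first of 2 starts), the paralogue to set beside EZH1, and of BMI1 (chr10:22320849-22321098, plus strand; first of 2 starts), the member with a BRG1 peak at its 5 prime end. Capitals mark the E2F letters, which begin at position -115 in EZH1, where they read on the opposite strand, and at -189 in SUZ12, counted from the RefSeq start. No E2F spelling was found in these EZH2 or BMI1 windows, which says only that those letters are not there.
EZH1: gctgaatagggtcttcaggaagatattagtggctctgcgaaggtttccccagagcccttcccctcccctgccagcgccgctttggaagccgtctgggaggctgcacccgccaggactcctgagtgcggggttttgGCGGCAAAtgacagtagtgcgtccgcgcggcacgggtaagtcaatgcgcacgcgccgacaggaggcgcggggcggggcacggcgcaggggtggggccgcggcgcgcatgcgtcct
EZH2: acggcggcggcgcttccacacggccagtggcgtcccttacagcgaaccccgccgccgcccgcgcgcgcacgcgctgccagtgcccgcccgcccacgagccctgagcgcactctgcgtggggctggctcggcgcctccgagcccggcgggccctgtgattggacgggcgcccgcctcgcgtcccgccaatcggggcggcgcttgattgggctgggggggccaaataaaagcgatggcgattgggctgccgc
SUZ12: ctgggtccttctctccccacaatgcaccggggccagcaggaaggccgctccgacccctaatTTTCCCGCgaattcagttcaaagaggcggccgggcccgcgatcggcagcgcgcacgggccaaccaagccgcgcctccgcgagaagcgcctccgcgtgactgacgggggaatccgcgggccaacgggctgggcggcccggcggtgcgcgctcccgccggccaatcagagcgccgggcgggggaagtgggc
BMI1: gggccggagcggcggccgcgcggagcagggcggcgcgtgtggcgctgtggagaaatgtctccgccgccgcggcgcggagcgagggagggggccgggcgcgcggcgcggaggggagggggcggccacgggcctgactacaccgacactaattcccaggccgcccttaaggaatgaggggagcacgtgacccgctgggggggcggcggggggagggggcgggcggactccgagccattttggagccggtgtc

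Levels were compared between genes as CPM per kb of annotated exon, since longer transcripts gather more fragments. In si-control at 0 h SUZ12 was highest at 16.3 ± 1.79 CPM per kb (SD, n = 2), followed by RNF2 at 10.0 ± 1.16, BMI1 at 6.36 ± 2.43, CBX2 at 4.84 ± 0.193 and EZH2 at 3.97 ± 0.120. EED at 3.43 ± 0.150, JARID2 at 3.42 ± 0.231 and EZH1 at 3.29 ± 0.348 CPM per kb lay within each other's spread, and CBX7 was lowest at 1.50 ± 0.0163. BMI1 and CBX2 did not differ beyond the spread of BMI1, whose libraries were at 19.9 and 34.6 CPM. At 6 h of hormone in si-control the order of CBX2 and RNF2 was different: CBX2 reached 11.7 ± 1.47 CPM per kb, beside 9.83 ± 0.0665 for RNF2. CBX2 varied most over the 8 groups, with a mean of 172.7 CPM in si-FOXA1 at 6 h and 27.5 CPM in si-control at 0 h, 6.28-fold apart. SUZ12 and EED varied least, with 1.46-fold and 1.47-fold between their highest and lowest group means.

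**Figure D1:**
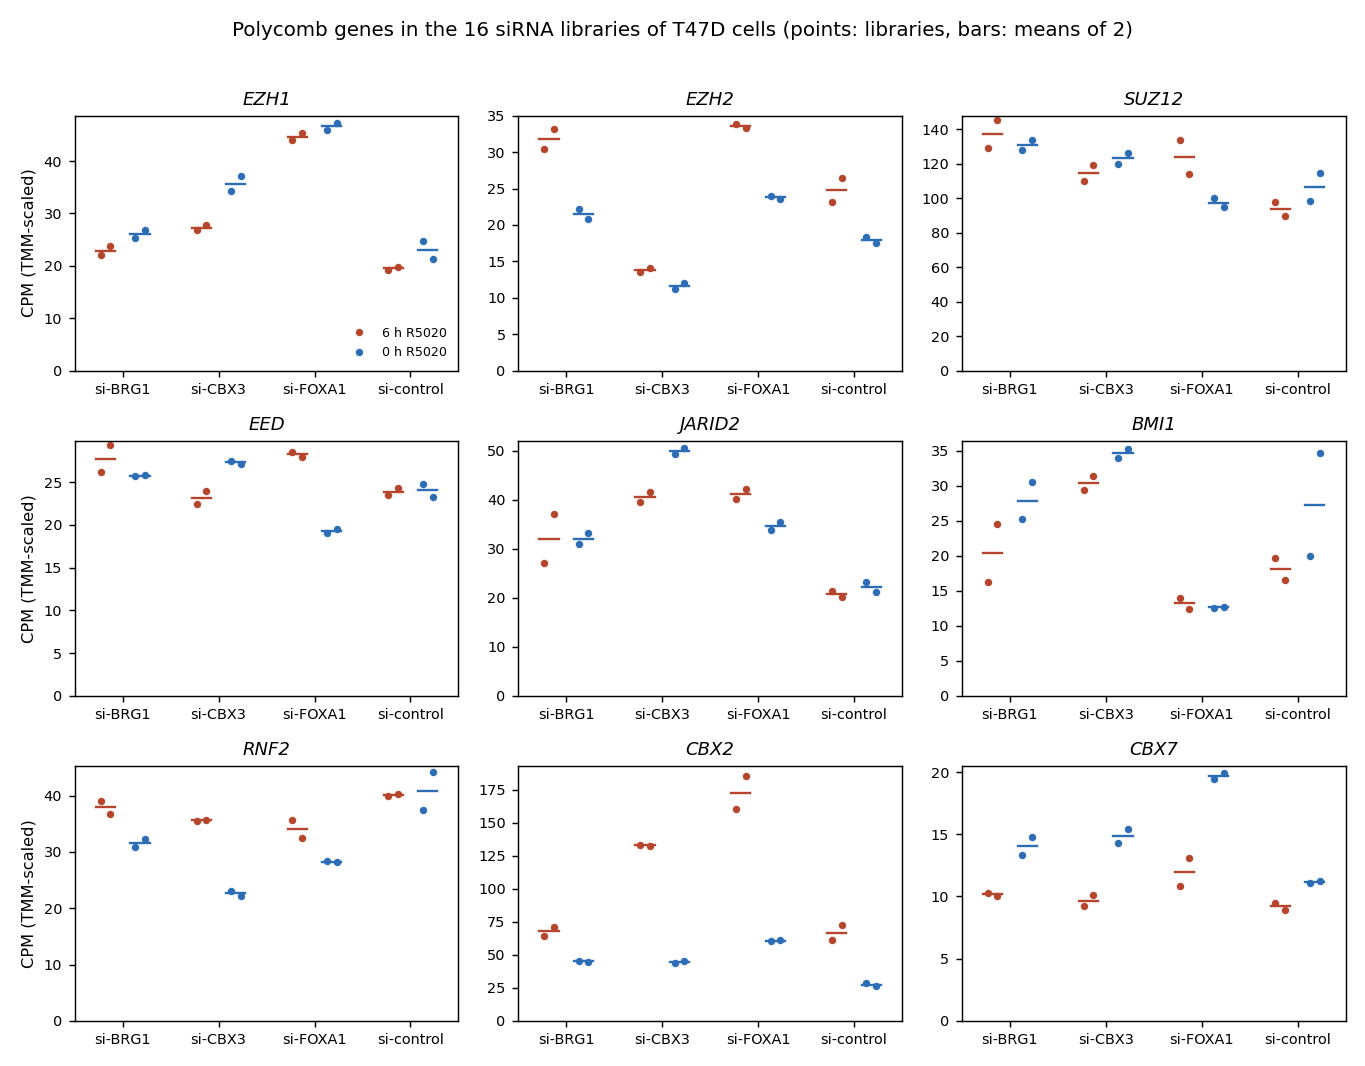
Level of each of the 9 genes in CPM (vertical axes, each from 0) in the 16 libraries, by siRNA and time of R5020. Points are libraries and bars are means of 2; CBX2 is higher and CBX7 lower at 6 h than at 0 h under each siRNA, and the si-control 0 h libraries of BMI1 lie far apart.

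CBX2 and EZH2 rose and CBX7 fell with hormone under each of the 4 siRNAs, where 7.46% of all genes tested were called higher and 5.16% lower under all 4. In si-BRG1, 3 members were higher and 1 lower at 6 h than at 0 h, beside 18.6% of genes higher and 17.1% lower among all tested. In si-CBX3, 3 were higher and 4 lower, beside 20.4% and 20.5% of genes, and 4 in all were called without 0 h replicate 1, 0 h replicate 2 or 6 h replicate 1. In si-FOXA1, 5 were higher and 1 lower, beside 19.1% and 19.6%. In si-control, 2 were higher and 3 lower, beside 19.5% and 18.1%; 3 in all were called without 0 h replicate 2 or 6 h replicate 1, and 2 without 6 h replicate 2. The median log2 fold change of the members was 0.07 in si-BRG1, -0.19 in si-CBX3, 0.27 in si-FOXA1 and -0.09 in si-control, where the median of all genes tested was -0.03, -0.02, -0.04 and -0.02. The medians had both signs, and counts of a few among 9 genes are not read as a property of the complexes.

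Among the knockdowns si-FOXA1 changed the most members and also the most of all genes, and the comparisons with si-control share its libraries. At 0 h, si-BRG1 had 5 members above si-control and 1 below, beside 15.1% and 13.4% of genes; 3 to 4 in all were called when any 1 of these libraries was left out, with 3 without si-BRG1 replicate 2 or si-control replicate 2. In si-CBX3, 4 were higher and 2 lower, beside 28.1% and 26.0% of genes. In si-FOXA1, 5 were higher and 3 lower, beside 40.0% and 33.5%. At 6 h, si-BRG1 had 5 members above si-control and 0 below (19.6% and 17.8% of genes; 3 were called without si-BRG1 replicate 2 or either si-control replicate), 5 were higher and 1 lower in si-CBX3 (24.7% and 24.4%), and 7 were higher and 1 lower in si-FOXA1 (40.1% and 34.5%). The si-FOXA1 and si-CBX3 libraries had the same thread setting. At 0 h, 5 members were higher and 4 lower in si-FOXA1 than in si-CBX3, beside 34.2% and 30.6% of genes.

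The hormone response itself was compared between siRNAs with the interaction term of the same fit. In si-BRG1, 0 members responded more positively than in si-control and 1 more negatively, CBX2, beside 1.49% and 3.72% of genes. In si-CBX3, 1 member did so more positively, RNF2, and 0 more negatively, beside 4.63% and 4.36%. In si-FOXA1, EED and SUZ12 responded more positively and CBX7 more negatively, beside 13.0% and 15.7% of genes. The response of EZH2 passed in none of the 3, with differences of 0.10 (SE 0.12), -0.22 (SE 0.12) and 0.03 (SE 0.12) on the log2 scale in si-BRG1, si-CBX3 and si-FOXA1.

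**Figure D2:**
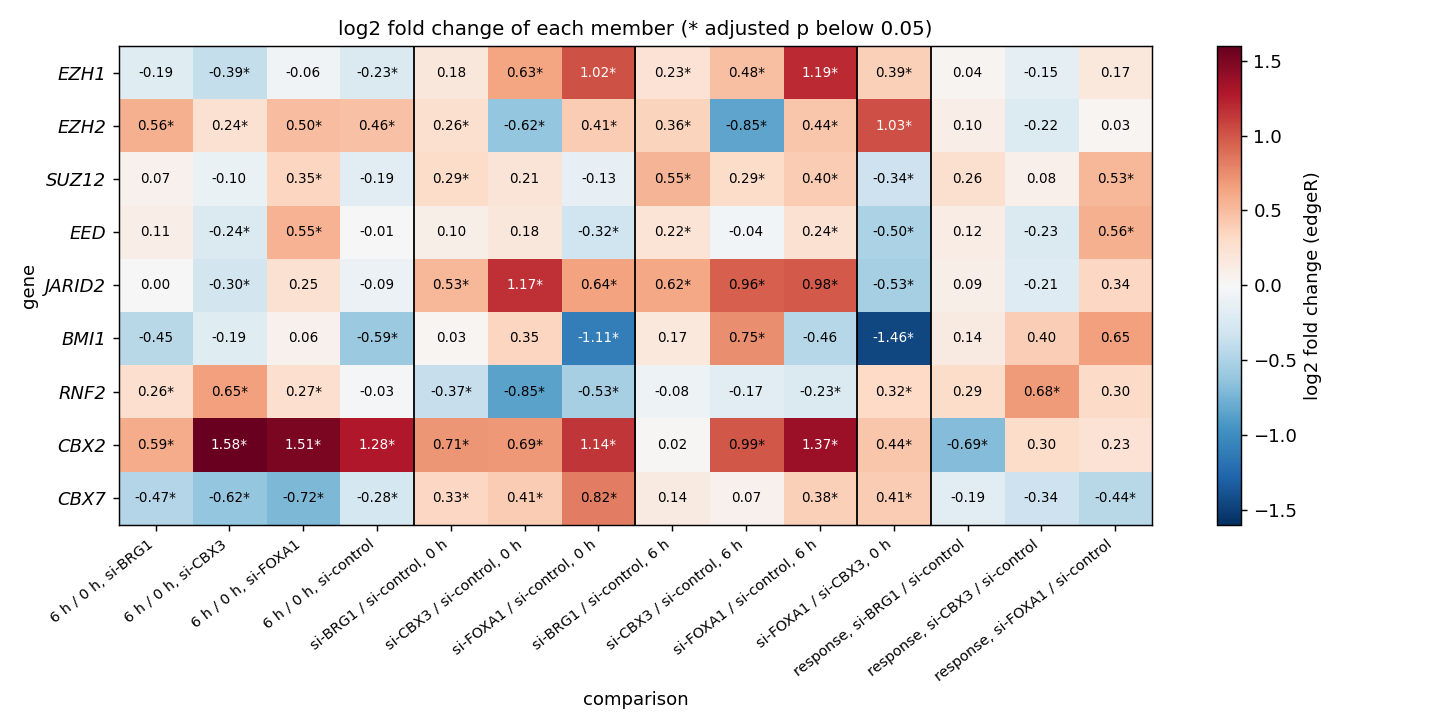
log2 fold change (colour and number) of each gene (rows) in the 14 comparisons (columns), with the group named first divided by the group named second; the last 3 columns are differences of hormone response from si-control. Stars mark adjusted p below 0.05; the CBX2 and EZH2 rows are starred and positive and the CBX7 row starred and negative in the 4 hormone columns at left.

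EZH2, the methyltransferase of PRC2 in dividing cells (ENSG00000106462.6, chr7:148504475-148581413, minus strand; hg19, as for every gene position here), rose with hormone. It stood at 30.4 and 33.1 CPM at 6 h in si-BRG1, against 22.1 and 20.9 at 0 h. In si-CBX3 it was at 13.5 and 14.0 CPM at 6 h and 11.2 and 12.1 at 0 h, and in si-FOXA1 at 33.9 and 33.4 CPM at 6 h and 24.0 and 23.6 at 0 h. In si-control it was at 23.1 and 26.4 CPM at 6 h and 18.3 and 17.6 at 0 h. No 6 h library overlapped the 0 h libraries of its siRNA. The log2 rise was 0.56 (SE 0.08, adjusted p = 3.4e-05) in si-BRG1, 0.50 (SE 0.08, adjusted p = 0.00012) in si-FOXA1 and 0.46 (SE 0.08, adjusted p = 0.0003) in si-control. In si-CBX3 it was 0.24 (SE 0.09, adjusted p = 0.036), a call that was lost when any of the 4 si-CBX3 libraries was left out, with log2 rises of 0.19 to 0.30 and adjusted p of 0.059 to 0.22. Before hormone EZH2 was lower in si-CBX3 than in si-control, at -0.62 (SE 0.09, adjusted p = 1.1e-05), and higher in si-FOXA1, at 0.41 (SE 0.08, adjusted p = 0.00033). The 2 knockdowns differed by 1.03 (SE 0.09, adjusted p = 1.8e-08), si-FOXA1 over si-CBX3. In si-BRG1 EZH2 was higher than in si-control by 0.26 at 0 h, which was lost without each of the 4 libraries (0.22 to 0.30, adjusted p 0.062 to 0.18), and by 0.36 (SE 0.08, adjusted p = 0.0025) at 6 h, which was lost with only those groups fitted (adjusted p = 0.057).

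EZH1, the paralogue found also in resting cells (ENSG00000108799.8, chr17:40852293-40897071, minus strand), did not follow EZH2. At 0 h it stood at 46.0 and 47.3 CPM in si-FOXA1 and 34.3 and 37.0 in si-CBX3, against 24.7 and 21.3 in si-control. These are differences of 1.02 (SE 0.08, adjusted p = 8.6e-09) for si-FOXA1 and 0.63 (SE 0.08, adjusted p = 6.1e-06) for si-CBX3, while si-BRG1 differed by 0.18 (SE 0.08, adjusted p = 0.11). With hormone EZH1 fell in si-CBX3, by 0.39 (SE 0.08, adjusted p = 0.0011), and in si-control, by 0.23 (SE 0.08, adjusted p = 0.038). The si-control call was lost without 0 h replicate 1 (-0.14, adjusted p = 0.28), 6 h replicate 1 (-0.23, adjusted p = 0.13) or 6 h replicate 2 (-0.26, adjusted p = 0.086). The per-length ratio of EZH2 to EZH1 therefore changed across the series. It was 2.15 ± 0.0108 at 6 h and 1.27 ± 0.105 at 0 h in si-BRG1, 0.780 ± 0.00349 and 0.505 ± 0.00147 in si-CBX3, 1.16 ± 0.0400 and 0.789 ± 0.0249 in si-FOXA1, and 1.96 ± 0.147 and 1.21 ± 0.0920 in si-control (SD, n = 2 each). EZH1 exceeded EZH2 per length in every library of si-CBX3 and in the 0 h libraries of si-FOXA1, and EZH2 exceeded EZH1 in the other 10 libraries.

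**Figure D3:**
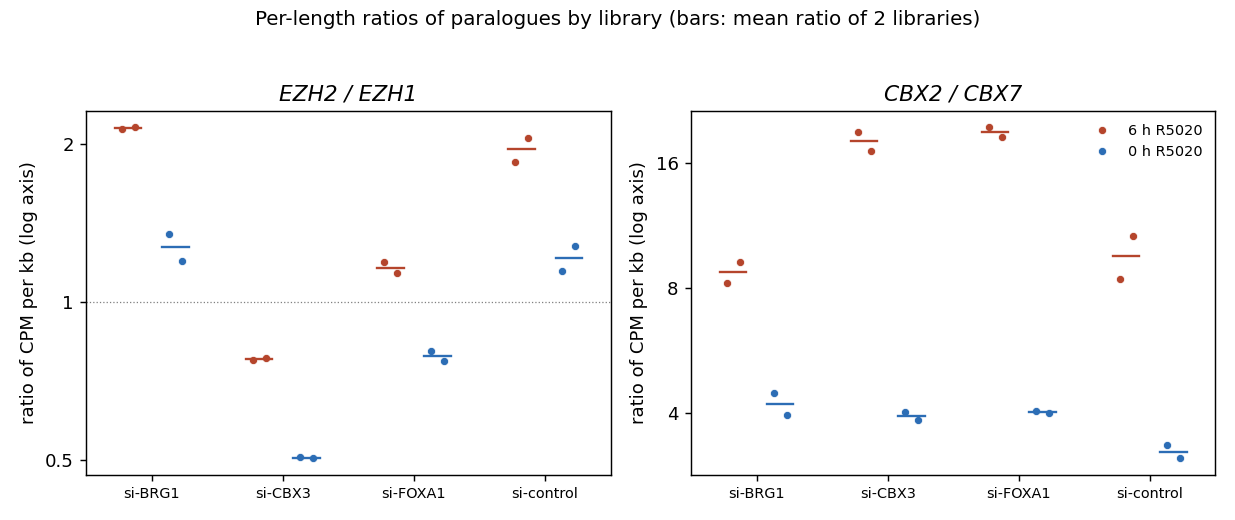
Ratio of CPM per kb of EZH2 to EZH1 (left) and of CBX2 to CBX7 (right), on log axes, by siRNA and time. Points are libraries and bars mean ratios of 2; the EZH2 to EZH1 ratio is lowest in si-CBX3 at 0 h (0.505), and the CBX2 to CBX7 ratio is highest in si-FOXA1 at 6 h (18.99).

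EZH2 was set beside 17 proliferation genes. In si-BRG1 at 0 h 16 of the 17 were higher than in si-control and 0 lower, among them E2F1 (0.85, SE 0.08) and CDC6 (0.86, SE 0.08), with a list median of 0.52 beside 0.03 for all genes tested, of which 15.1% were higher and 13.4% lower. In si-CBX3 16 were lower and 0 higher (median -1.43, all genes 0.05; 26.0% lower and 28.1% higher), such as CCNB1 at -1.77 (SE 0.08) and BIRC5 at -2.24 (SE 0.10), and EZH2 was lower too. In si-FOXA1 12 were lower and 3 higher (median -0.35, all genes 0.11; 33.5% lower and 40.0% higher), with CCNB1 at -1.09 (SE 0.07), while EZH2 was higher by 0.41. With hormone the list was mixed in si-control, 6 higher and 5 lower (19.5% and 18.1% of all genes), with the S-phase genes CCNE2 (1.33, SE 0.10), CDC6 (0.97, SE 0.08) and E2F1 (0.86, SE 0.08) among those that rose. In si-BRG1 7 rose and 2 fell (18.6% and 17.1% of all genes), and in si-CBX3 7 and 4 (20.4% and 20.5%). In si-FOXA1 11 rose and 0 fell (19.1% and 19.6%). The list medians were 0.20, 0.16, 0.43 and 0.13 in si-BRG1, si-CBX3, si-FOXA1 and si-control. EZH2 rose by 0.56, 0.24, 0.50 and 0.46 in that order. In bulk RNA fewer cells of a type and less RNA per cell cannot be told apart, and the part of cycling cells in the EZH2 values was not tested.

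**Figure D4:**
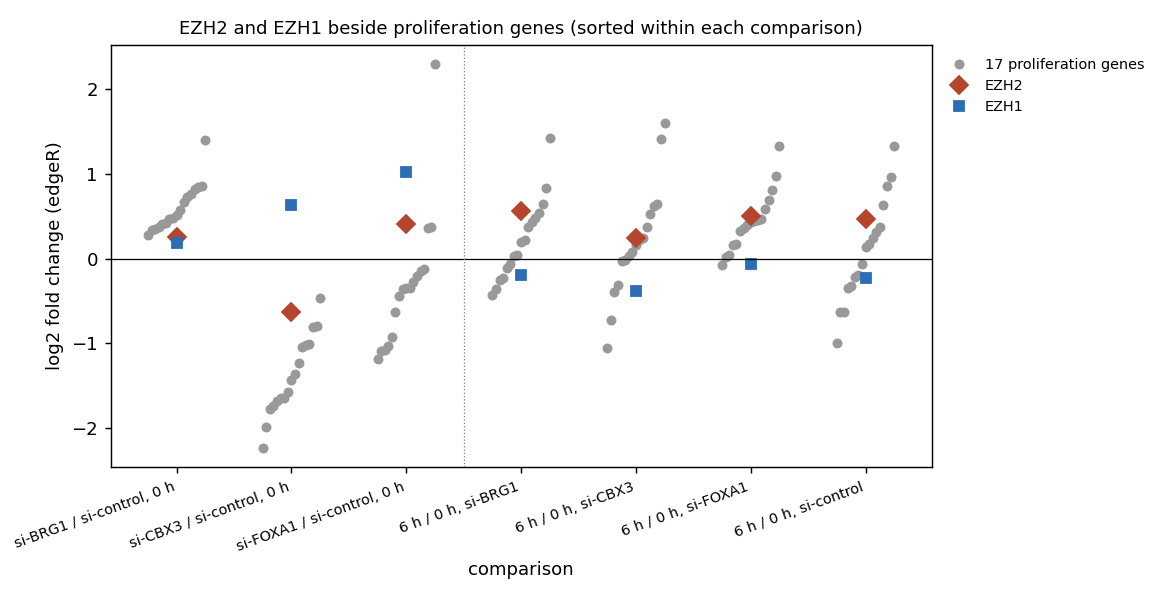
log2 fold change (vertical axis) of the 17 proliferation genes (grey, sorted), EZH2 (red) and EZH1 (blue) for 3 knockdowns against si-control at 0 h (left of the dotted line) and for 6 h against 0 h of R5020 (right). In si-CBX3 at 0 h all grey points are below 0 and EZH2 is at -0.62; in si-FOXA1 most grey points are below 0 and EZH2 is at 0.41.

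SUZ12, the PRC2 scaffold (ENSG00000178691.6, chr17:30264037-30328064, plus strand), and EED, which reads the methyl mark (ENSG00000074266.13, chr11:85955586-85989855, plus strand), were the steadiest members, and they rose with hormone under si-FOXA1. EED stood at 28.6 and 28.0 CPM at 6 h in si-FOXA1, against 19.1 and 19.5 at 0 h, a rise of 0.55 (SE 0.08, adjusted p = 2.2e-05). In si-control it was at 23.5 and 24.3 CPM at 6 h and 24.8 and 23.3 at 0 h, a difference of -0.01 (SE 0.08). The responses differed by 0.56 (SE 0.11, adjusted p = 0.0011). Before hormone EED was lower in si-FOXA1 than in si-control, at -0.32 (SE 0.08, adjusted p = 0.0014). The group with the lowest level at 0 h had the largest rise, but the same 0 h libraries enter both values.

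SUZ12 gave a like pattern with wider spread. It stood at 133.8 and 113.8 CPM at 6 h in si-FOXA1 and 100.2 and 94.6 at 0 h, a rise of 0.35 (SE 0.09, adjusted p = 0.0069) that was lost without 6 h replicate 1 (0.22, adjusted p = 0.13) or 0 h replicate 2 (0.30, adjusted p = 0.079). In si-control it was at 97.6 and 89.6 CPM at 6 h and 98.2 and 114.8 at 0 h, and these groups did not overlap but the difference of -0.19 (SE 0.09, adjusted p = 0.13) did not pass. The responses differed by 0.53 (SE 0.13, adjusted p = 0.006). At 6 h SUZ12 was higher in si-BRG1 than in si-control, at 128.8 and 145.1 CPM against 97.6 and 89.6, by 0.55 (SE 0.09, adjusted p = 0.00023). SUZ12P1, a partial copy of SUZ12, had 216 to 817 fragments per library, and adding them to SUZ12 moved 1 of its calls: at 0 h si-CBX3 against si-control reached an adjusted p of 0.049, against 0.068 without them. In si-CBX3 EED fell with hormone by 0.24 (SE 0.08, adjusted p = 0.022), which was lost without 6 h replicate 1 (-0.16, adjusted p = 0.26), 0 h replicate 1 (-0.22, adjusted p = 0.11) or 0 h replicate 2 (-0.25, adjusted p = 0.079).

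JARID2, the DNA-binding cofactor of PRC2 (ENSG00000008083.9, chr6:15246527-15522252, plus strand), was higher under every knockdown than in si-control at both times. At 0 h it stood at 30.9 and 33.1 CPM in si-BRG1, 49.3 and 50.5 in si-CBX3 and 33.8 and 35.5 in si-FOXA1, against 23.2 and 21.1 in si-control. No knockdown library overlapped si-control. The log2 differences were 0.53 for si-BRG1 (SE 0.11, adjusted p = 0.0018), 1.17 for si-CBX3 (SE 0.11, adjusted p = 1.7e-07) and 0.64 for si-FOXA1 (SE 0.11, adjusted p = 5.6e-05). At 6 h they were 0.62 for si-BRG1, 0.96 for si-CBX3 and 0.98 for si-FOXA1, each with SE 0.11. With the same thread setting, JARID2 was lower in si-FOXA1 than in si-CBX3 at 0 h, at -0.53 (SE 0.11, adjusted p = 0.00043). Hormone lowered JARID2 in si-CBX3, by 0.30 (adjusted p = 0.036), a call lost without any of the 4 libraries (-0.24 to -0.33, adjusted p 0.085 to 0.24). In si-BRG1 the 6 h libraries were at 27.0 and 37.1 CPM and the response was 0.00 (SE 0.11); without 6 h replicate 2 it was -0.25 with an adjusted p of 0.038.

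RNF2, the H2A ubiquitin ligase of PRC1 (ENSG00000121481.6, chr1:185014496-185071740, plus strand), was lower under each knockdown than in si-control before hormone and rose with hormone under each knockdown. At 0 h it stood at 30.8 and 32.4 CPM in si-BRG1, 23.0 and 22.2 in si-CBX3 and 28.3 and 28.2 in si-FOXA1, against 37.5 and 44.2 in si-control. The log2 differences were -0.37 for si-BRG1 (SE 0.08, adjusted p = 0.0029), -0.85 for si-CBX3 (SE 0.08, adjusted p = 2.6e-07) and -0.53 for si-FOXA1 (SE 0.08, adjusted p = 2e-05), and the groups did not overlap. The si-BRG1 call was lost without si-control 0 h replicate 2 (-0.25, adjusted p = 0.053). At 6 h RNF2 was at 39.0 and 36.8 CPM in si-BRG1, 35.5 and 35.6 in si-CBX3 and 35.7 and 32.5 in si-FOXA1, against 39.8 and 40.2 in si-control. Only si-FOXA1 then passed, at -0.23 (SE 0.08, adjusted p = 0.018), and not without si-FOXA1 6 h replicate 2 (-0.17, adjusted p = 0.14). The hormone response was 0.65 (SE 0.08, adjusted p = 6.9e-06) in si-CBX3 and -0.03 (SE 0.08) in si-control, and the 2 responses differed by 0.68 (SE 0.12, adjusted p = 0.0013). In si-BRG1 and si-FOXA1 the rise was 0.26 and 0.27 (SE 0.08 each), lost without si-BRG1 0 h replicate 1 (0.22, adjusted p = 0.14), 0 h replicate 2 (0.30, adjusted p = 0.054) or 6 h replicate 1 (0.22, adjusted p = 0.079), and without si-FOXA1 0 h replicate 1 (0.27, adjusted p = 0.075), 0 h replicate 2 (0.26, adjusted p = 0.093) or 6 h replicate 1 (0.20, adjusted p = 0.14).

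BMI1 (PCGF4), the RING partner of RNF2 (ENSG00000168283.9, chr10:22610140-22620413, plus strand), separated the si-FOXA1 and si-CBX3 cells most. At 0 h it stood at 12.5 and 12.7 CPM in si-FOXA1, against 34.0 and 35.3 in si-CBX3. This is a difference of -1.46 (SE 0.20, adjusted p = 9.5e-06) between groups with the same thread setting. Both si-FOXA1 libraries also lay below the si-control libraries at 19.9 and 34.6 CPM, a difference of -1.11 (SE 0.21, adjusted p = 0.00012). At 6 h BMI1 was higher in si-CBX3 than in si-control, at 29.3 and 31.4 CPM against 19.7 and 16.5 (0.75, SE 0.20, adjusted p = 0.0058), which was lost without si-control 6 h replicate 2 (0.62, adjusted p = 0.077). The fall with hormone in si-control, 0.59 (SE 0.20, adjusted p = 0.031), was -0.14 without 0 h replicate 2 (adjusted p = 0.62), -0.96 without 0 h replicate 1 and -0.48 without 6 h replicate 2 (adjusted p = 0.21). The call was also lost with DESeq2 (adjusted p = 0.066) and with only the groups compared (adjusted p = 0.061). The 6 h libraries at 19.7 and 16.5 CPM did not overlap the 0 h libraries, but the 0 h replicate at 19.9 CPM lay close to them. The read-through transcript COMMD3-BMI1 had at most 7 fragments in any library.

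CBX2, a CBX subunit that compacts chromatin (ENSG00000173894.6, chr17:77751931-77761782, plus strand), was the member that hormone raised most in si-CBX3, si-FOXA1 and si-control. In si-BRG1 its log2 rise of 0.59 (SE 0.09) was close to that of EZH2, 0.56 (SE 0.08). CBX2 stood at 64.5 and 71.0 CPM at 6 h in si-BRG1, against 45.3 and 44.6 at 0 h. It was at 133.5 and 132.2 CPM at 6 h in si-CBX3, against 43.9 and 45.2 at 0 h, and at 160.4 and 185.1 CPM at 6 h in si-FOXA1, against 60.2 and 60.9 at 0 h. In si-control it was at 60.9 and 72.7 CPM at 6 h and 28.3 and 26.7 at 0 h, a 2.43-fold rise. The 6 h and 0 h libraries of the same siRNA did not overlap. The log2 rises were 0.59 in si-BRG1, 1.58 in si-CBX3, 1.51 in si-FOXA1 and 1.28 in si-control (SE 0.09 each, adjusted p = 3.8e-05, 2.5e-10, 5.9e-10 and 4.9e-09). The response in si-BRG1 was smaller than in si-control by 0.69 (SE 0.12, adjusted p = 0.0066). That call was lost without si-control 6 h replicate 2 (-0.53, adjusted p = 0.058) and when only the 4 groups compared were fitted (-0.68, adjusted p = 0.066).

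Before hormone CBX2 was higher than in si-control in si-BRG1, where its response was smaller. It was also higher in si-CBX3 and si-FOXA1, where the responses were not smaller than in si-control. At 0 h CBX2 was above si-control by 0.71 (SE 0.09, adjusted p = 2.3e-05) in si-BRG1, 0.69 in si-CBX3 and 1.14 in si-FOXA1, each with SE 0.09. At 6 h si-BRG1 and si-control differed by 0.02 (SE 0.09, adjusted p = 0.87), whereas CBX2 was higher by 0.99 in si-CBX3 and by 1.37 in si-FOXA1, each with SE 0.09. CBX2 was thus higher than in si-control at both times in si-CBX3 and si-FOXA1, and at 0 h in si-BRG1.

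CBX7, the CBX protein best known as a repressor of the CDKN2A locus (ENSG00000100307.8, chr22:39516172-39548679, minus strand), moved opposite to CBX2 with hormone. At 6 h it stood at 10.3 and 10.1 CPM in si-BRG1, 9.20 and 10.1 in si-CBX3, 10.8 and 13.1 in si-FOXA1 and 9.48 and 8.91 in si-control. At 0 h it stood at 13.3 and 14.8 CPM in si-BRG1, 14.3 and 15.4 in si-CBX3, 19.5 and 19.9 in si-FOXA1 and 11.1 and 11.3 in si-control. Each 6 h group lay below its 0 h group without overlap, and CBX7 fell by 0.47 in si-BRG1 (SE 0.10, adjusted p = 0.0013), by 0.62 in si-CBX3 (SE 0.10, adjusted p = 9.9e-05), by 0.72 in si-FOXA1 (SE 0.10, adjusted p = 1.8e-05) and by 0.28 in si-control (SE 0.10, adjusted p = 0.04) on the log2 scale. The si-control call was lost without any of its 4 libraries (-0.25 to -0.34, adjusted p 0.061 to 0.19). The knockdowns held more CBX7 before hormone than si-control, by 0.33 in si-BRG1, 0.41 in si-CBX3 and 0.82 in si-FOXA1 (SE 0.10 each, adjusted p = 0.019, 0.0021 and 1.1e-06). The si-BRG1 call was lost without si-BRG1 0 h replicate 2 (0.25, adjusted p = 0.18), si-control 0 h replicate 1 (0.29, adjusted p = 0.11) or si-control 0 h replicate 2 (0.33, adjusted p = 0.077). The fall in si-FOXA1 exceeded that in si-control by 0.44 (SE 0.14, adjusted p = 0.029), which was lost without any 1 of 7 of the 8 libraries compared (-0.31 to -0.46, adjusted p 0.058 to 0.13).

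Per length, the ratio of CBX2 to CBX7 was 8.75 ± 0.720 at 6 h and 4.22 ± 0.362 at 0 h in si-BRG1, 18.1 ± 1.37 and 3.94 ± 0.130 in si-CBX3, 18.99 ± 0.702 and 4.03 ± 0.0343 in si-FOXA1, and 9.57 ± 1.61 and 3.23 ± 0.164 in si-control (SD, n = 2 each).

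Other genes of the 2 complexes were described from lists of partners. The listed partners EPOP (PRC2) and PCGF2 (PRC1) were not matched by symbol in the count files, so they were not tested. Of 7 PRC2 partners tested, 5 rose and 1 fell with hormone in si-BRG1, 5 rose and 0 fell in si-CBX3, 5 rose and 0 fell in si-FOXA1 and 2 rose and 1 fell in si-control. Of all genes tested 18.6% rose and 17.1% fell in si-BRG1, 20.4% and 20.5% in si-CBX3, 19.1% and 19.6% in si-FOXA1 and 19.5% and 18.1% in si-control. PHF19, which reads methylated H3K36 for PRC2, led them at 85.5 and 85.3 CPM at 6 h and 28.8 and 30.0 at 0 h in si-control (1.54, SE 0.06, adjusted p = 7.4e-12). In si-BRG1 PHF19 was at 87.2 and 90.2 CPM at 6 h and 46.5 and 47.2 at 0 h, so, like CBX2, it began higher and ended at a level near si-control, with a response smaller by 0.62 (SE 0.09, adjusted p = 0.0019). Of 9 canonical PRC1 partners, 3 rose and 2 fell in si-control (19.5% and 18.1% of all genes), among them the polyhomeotic gene PHC2 (0.73, SE 0.08), which rose, and CBX6 (-0.80, SE 0.08), which fell. SCML2, a homologue of fly Scm, was lower in si-CBX3 at 0 h, at 2.46 and 2.97 CPM against 13.4 and 13.4 in si-control (-2.30, SE 0.12).

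Among 15 subunits of variant PRC1, which hold no CBX protein, the outstanding gene was KDM2B, the CpG-island binder. It stood at 41.6 and 40.7 CPM in si-BRG1, 54.1 and 53.8 in si-CBX3 and 86.0 and 86.9 in si-FOXA1 at 0 h, against 19.8 and 18.8 in si-control, log2 differences of 1.09 for si-BRG1, 1.48 for si-CBX3 and 2.16 for si-FOXA1 (SE 0.08 each). The list had 3 higher and 1 lower in si-BRG1, 6 and 7 in si-CBX3, and 8 and 4 in si-FOXA1. The background was 15.1% higher and 13.4% lower among all tested genes for si-BRG1, 28.1% and 26.0% in si-CBX3 and 40.0% and 33.5% in si-FOXA1, so 12 of 15 called in si-FOXA1 stands beside 73.5% of all genes. Of 11 genes that remove Polycomb marks or take part in doing so, 6 were higher and 0 lower in si-BRG1, 4 and 2 in si-CBX3, and 9 and 1 in si-FOXA1, beside those same shares. KDM6B, a demethylase of the PRC2 mark, stood at 14.0 and 16.8 CPM in si-BRG1, 34.8 and 31.0 in si-CBX3 and 39.5 and 39.3 in si-FOXA1, against 9.76 and 8.87 in si-control, and its paralogue KDM6A was lower in si-CBX3 (-0.35, SE 0.07) and si-FOXA1 (-0.87, SE 0.07).

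HOX genes and the CDKN2 locus are classical Polycomb targets, and 24 of the 41 listed passed the filter. With hormone 1 rose and 12 fell in si-BRG1, 1 rose and 15 fell in si-CBX3, 1 rose and 10 fell in si-FOXA1 and 1 rose and 9 fell in si-control, with list medians of -0.67, -0.74, -0.45 and -0.41 in that order. Of all genes 17.1% fell in si-BRG1, 20.5% in si-CBX3, 19.6% in si-FOXA1 and 18.1% in si-control, with medians of -0.03, -0.02, -0.04 and -0.02. CDKN2B, a cell-cycle inhibitor, fell in si-control at 6 h to 19.5 and 19.9 CPM, against 57.7 and 64.5 at 0 h (-1.63, SE 0.09, adjusted p = 1.3e-10). Before hormone 7 were higher and 1 lower in si-BRG1, 14 and 1 in si-CBX3, and 19 and 2 in si-FOXA1, with list medians of 0.44, 0.76 and 0.94 in that order, beside 0.03, 0.05 and 0.11 for all genes tested, of which 15.1%, 28.1% and 40.0% were higher. HOXC10 was higher in si-CBX3 by 1.33 (SE 0.07) and HOXB7 in si-FOXA1 by 1.69 (SE 0.18), while CDKN2B was lower in each knockdown, at -0.95 for si-BRG1, -0.77 for si-CBX3 and -1.69 for si-FOXA1 (SE 0.08, 0.08 and 0.09). Levels within the list differed widely, and its medians include genes near the floor. Without siRNA, HOXB7 was at 0.18 RPKM at 6 h and 0.69 at 0 h, and HOXC10 at 33.3 and 32.4. Histone marks at the listed genes were not analysed here.

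The genes most like each member were sought by Pearson's r of log2 CPM over the 16 libraries, among 9867 named genes with a mean log2 CPM of at least 3. The libraries share siRNAs and times, so r is a description. EZH2 was nearest to MCM10 (r = 0.97), LMNB1 (0.97) and MCM7 (0.97), and MCM10 and MCM7 take part in DNA replication. EZH1 was nearest to CROCC (0.98), PLCB3 (0.98) and CEP164 (0.98), JARID2 to ZBTB4 (0.98), CBX2 to AHDC1 (0.98) and BMI1 to GMFB (0.97). RNF2 was nearest to SLC30A6 (0.96), CBX7 to LPAR1 (0.96), SUZ12 to ZNF569 (0.93) and EED to KIF5B (0.88). Among the 36 pairs of members r ran from -0.76 for EZH2 with BMI1 to 0.73 for EZH1 with CBX7, and the PRC2 core pair SUZ12 and EED had 0.70. EZH1 and EZH2 had 0.05.

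Without siRNA, RPKM summed over transcripts gave the members' level in 1 library per time, with no test. CBX2 was at 13.8 RPKM at 6 h and 7.44 at 0 h, a log2 ratio of 0.81 with a pseudocount of 1, and JARID2 at 5.35 and 3.18 (0.60). EZH2 was at 8.43 RPKM at 6 h and 7.37 at 0 h (0.17), BMI1 at 12.5 and 16.7 (-0.40), SUZ12 at 5.13 and 6.47 (-0.28) and EED at 6.28 and 7.69 (-0.26). RNF2 had a ratio of 0.12, EZH1 of 0.01 and CBX7 of -0.07. EZH1 was at 19.2 RPKM at 6 h and 19.1 at 0 h, above EZH2 at both times. In si-control EZH2 was above EZH1 in CPM per kb, which is a different measure from these sums. The median ratio of the 13503 genes with a mean of at least 1 RPKM was 0.14, so of the 9 members CBX2 and JARID2 lay furthest above it and EZH2 at 0.03 over it. Of the 5 members called in si-control, CBX2, EZH2, BMI1 and CBX7 had the same sign here before and after centring on that median, and EZH1 (-0.13 after centring) only after it. The values of EZH2 after centring and of CBX7 before it were near 0. JARID2, at 0.60 here, was not called in si-control, where its response was -0.09 (SE 0.11, adjusted p = 0.57).

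Those sums rest on uneven transcript estimates. For EZH1, 71.9% of the 6 h RPKM came from ENST00000589846.1, a transcript of 773 bases, and 4.64% from ENST00000428826.2, of 4623 bases. For EZH2, ENST00000483012.1 gave 58.3% of the 6 h RPKM. For BMI1, ENST00000490311.1 was at 0.142 RPKM at 6 h and 5.02 at 0 h while ENST00000602358.1 was at 6.87 and 4.19, and ENST00000376663.3, of 3428 bases, was at 1.02 and 2.18. For CBX2, ENST00000310942.4, of 4644 bases, was at 6.17 RPKM at 6 h and 3.69 at 0 h and ENST00000571484.1 at 7.15 and 3.23, higher at 6 h in both. For JARID2 the 2 longest transcripts, ENST00000341776.2 and ENST00000397311.3, were at 2.79 and 1.69 RPKM at 6 h, against 1.70 and 1.04 at 0 h.

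BRG1 peaks were set against the annotated 5 prime ends of the members in hg19. At 30 min of R5020, 1 of the 9 members, BMI1, had a peak within 5 kb, beside 12.8% of the 17398 tested genes with annotated transcripts. The peak (chr10:22609519-22610123, score 52.65 by the authors) ended 17 bases before the 5 prime end of BMI1 at 22610140 and lay beyond the end of the upstream gene COMMD3 at 22609235. At 0 min 0 members had a peak within 5 kb, beside 2.75% of genes, and the peak nearest to BMI1 was 5113 kb away. The 30 min list holds 6180 peaks and the 0 min list 2288, each from 1 library, so a peak in 1 list only is not a tested change. The next nearest were a peak 12.1 kb from a 5 prime end of RNF2 at 0 min and, at 30 min, peaks 44.8 kb from JARID2 and 57.9 kb from CBX2. For EZH1, EZH2, SUZ12, EED and CBX7 the nearest peak of either list was 147 kb away, from SUZ12 at 30 min.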

How the data were processed

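The members and gene lists were chosen with earlier results of these data known. Per the file headers, the authors deposited whole-number counts of reverse-stranded fragments per gene (featureCounts 1.4.6-p2, GENCODE 19, hg19). The submitters' processing notes list Trimmomatic, STAR, HOMER and Bowtie 1.0.0. The authors deposited RPKM per transcript for the libraries without siRNA and a score per BRG1 peak; for both, the aligner's role and settings are not stated in the sources used here. The libraries came from a stranded mRNA kit, and the labels of the first si-CBX3 0 h library give no protocol.

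Genes were matched to symbols (39538 of 57820, 68.4%). Counts of the 16 libraries were fitted in edgeR 4.0.16 (TMM, filterByExpr, 8 group means, quasi-likelihood F-test, two-sided, 8 residual degrees of freedom), with Benjamini-Hochberg adjustment over 18806 genes, and called at an adjusted p below 0.05. The code was checked on simulated counts. DESeq2 1.42.0, other scalings, no filter, only the groups compared, a replicate block and each library left out were alternatives. RPKM was summed per gene and compared as log2 with a pseudocount of 1. All members and siRNA targets are named, with up to 4 called genes of lowest p per list and comparison and the 3 genes most like each member. A result that involves a withheld item is not reported here.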

Additional observations from a re-analysis of the deposited data

Results flagged for a closer look

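The hormone response differed from that in si-control, by the interaction term of the edgeR fit, for 5 values of the members. CBX2 in si-BRG1 had a difference of -0.69 on the log2 scale (adjusted p = 0.0066) and RNF2 in si-CBX3 one of 0.68 (adjusted p = 0.0013). In si-FOXA1 the differences were 0.56 for EED (adjusted p = 0.0011), 0.53 for SUZ12 (adjusted p = 0.006) and -0.44 for CBX7 (adjusted p = 0.029). As given above, the CBX2 call was lost without si-control 6 h replicate 2 and with only the groups compared. The CBX7 call was lost on leaving out most of the compared libraries singly. For the members in si-CBX3 and si-FOXA1 the thread setting of the count command differed from that of si-control, and its part was not tested.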

How the results depend on the processing

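Of 75 called values of the members, 52 kept their call in every alternative run and 0 changed sign; of 51 uncalled values, 16 changed sign in at least 1. With every library kept, these counts moved by over 1.5 times. With hormone in si-control, 3 members were called with no filter and 3 with only the groups compared, against 5. In si-BRG1 against si-control at 6 h, 3 were called with DESeq2 size factors, 3 with no filter, 3 with DESeq2 and 2 with only the groups compared, against 5. For the response in si-BRG1, edgeR on only the groups compared called 0 of the members (1 at an unadjusted p under 0.05; DESeq2 called 1), and for si-FOXA1 it called 5, against 3. Over all genes the si-BRG1 response had 981 calls by edgeR and 1544 by DESeq2. Without siRNA, 3 ratios were positive after centring, against 5; within 50 kb, 2 members had a BRG1 peak at 30 min and 1 at 0 min. The differences between replicates 1 and 2 were correlated over genes between groups, and 7 of 28 group pairs exceeded 0.1. Between 0 h and 6 h of the same siRNA, r was 0.30 in si-BRG1, 0.15 in si-CBX3, 0.30 in si-FOXA1 and -0.08 in si-control. These values do not settle whether replicate numbers pair the samples. With the replicate block, 124 of 126 values kept direction and call. JARID2 with hormone in si-BRG1 came to -0.00082, and BMI1 in si-FOXA1 against si-control at 6 h was also called. Near-zero values that changed sign were BMI1 in si-BRG1 against si-control at 0 h (-0.0099 with DESeq2 size factors, -0.011 with DESeq2) and CBX2 at 6 h (-0.015 with both).

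Leaving out 1 library at a time gave 2 to 4 members called with hormone in si-control, 3 to 6 in si-BRG1, 4 to 5 in si-CBX3 and 4 to 6 in si-FOXA1, where the counts in si-control (5) and si-CBX3 (7) moved by over 1.5 times. Against si-control it gave 3 to 4, 6 to 8 and 8 to 9 at 0 h and 3 to 5, 4 to 6 and 6 to 8 at 6 h in si-BRG1, si-CBX3 and si-FOXA1, 9 to 9 in si-FOXA1 against si-CBX3, and 0 to 2, 1 to 2 and 2 to 4 for the responses; of these the si-BRG1 counts at 0 h (6) and 6 h (5) and the si-BRG1 and si-CBX3 responses (1 each) moved by over 1.5 times. Uncalled values that changed sign ran, with hormone, from -0.057 to 0.012 for EED and -0.17 to 0.091 for RNF2 in si-control, -0.021 to 0.15 for SUZ12 and -0.25 to 0.21 for JARID2 in si-BRG1, and -0.027 to 0.14 for BMI1 in si-FOXA1. Against si-control, BMI1 ran from -0.34 to 0.48 (si-BRG1, 0 h), -0.048 to 0.77 (si-CBX3, 0 h) and -0.16 to 0.44 (si-BRG1, 6 h), CBX2 from -0.090 to 0.16 (si-BRG1, 6 h) and EED from -0.091 to 0.0089 (si-CBX3, 6 h). Response differences ran from -0.032 to 0.16 for EZH1, -0.16 to 0.30 for JARID2 and -0.29 to 0.53 for BMI1 in si-BRG1, -0.0042 to 0.24 for SUZ12 and -0.025 to 0.79 for BMI1 in si-CBX3, and -0.039 to 0.15 for EZH2 in si-FOXA1. Where a group kept 1 library, it was assumed to vary like the others.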
